A study of Mus musculus with 24 samples.

Results

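The step from 1 to 2 g/L dichloroacetic acid (DCA) was examined in mouse liver, by setting the 6 RNA-seq libraries of mice that drank water with 2 g/L (replicates 73 to 78) against the 6 of mice that drank water with 1 g/L (replicates 49 to 54). These are 12 of the 24 libraries of the series. All were from livers of male B6C3F1 mice, a hybrid strain, that were 4 weeks old and had 6 days of treatment through the drinking water. The other libraries, 6 at 3.5 g/L and 6 of controls on untreated water, enter only where the shape over dose is described. Each title also bears the mark L1, L2 or L3, called the tag here, which no label explains. All 6 libraries at 2 g/L are tagged L2, whereas at 1 g/L replicates 52, 53 and 54 are L2 and replicates 49, 50 and 51 are L1. The controls are all L1 and the 3.5 g/L libraries are all L3. Whether every library stands for a separate mouse is not said in the labels, and the p-values cover only the spread among these libraries. Hepatocyte genes dominated all 12 libraries: Alb, which encodes serum albumin, lay at 11892 to 20584 RPKM (reads scaled to gene length and to the mapped reads of the library), and Cps1, which opens the urea cycle, at 435 to 726 RPKM. The bile duct markers Epcam and Krt19 stayed at or below 0.747 RPKM, and the T cell marker Cd3e at or below 1.00 RPKM.

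DCA is a by-product of water chlorination and an inhibitor of pyruvate dehydrogenase kinase, the brake on pyruvate entry into the citric acid cycle. In rodent liver, long-chain fatty acids and many synthetic acids bind PPARα, a nuclear receptor that pairs with RXR and switches on genes for omega-hydroxylation, peroxisomal and mitochondrial beta-oxidation, acyl-CoA hydrolysis and ketone body formation. The receptor pair binds direct repeats of the half-site AGGTCA with a single base between them. REV-ERBα and REV-ERBβ (Nr1d1 and Nr1d2), repressors of the circadian clock, read the same half-site next to an A/T-rich stretch, and their textbook targets include Arntl, Npas2 and Nfil3.

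Promoters of some members that moved in this step are shown for these sets: the peroxisomal enzyme Ehhadh and the thioesterase Acot4 rose, the repressor Nr1d2 rose, and the clock genes Arntl and Nfil3 fell. Other members that moved are not shown. The sequences are RefSeq promoters on GRCm38.p6, written 5′ to 3′ on the strand of the gene. Each runs from 250 bases before a listed transcription start to 50 bases after it, 300 in all. For Acot4 and Nfil3 this start is internal. Their windows lie inside the listed gene spans, 84037254 to 84044723 on chromosome 12 and 52967209 to 52982878 on chromosome 13. Capitals mark AGGTCA or, on the other strand, its complement TGACCT.
Ehhadh, chr16:21787785-21788084, minus strand, no match in this window: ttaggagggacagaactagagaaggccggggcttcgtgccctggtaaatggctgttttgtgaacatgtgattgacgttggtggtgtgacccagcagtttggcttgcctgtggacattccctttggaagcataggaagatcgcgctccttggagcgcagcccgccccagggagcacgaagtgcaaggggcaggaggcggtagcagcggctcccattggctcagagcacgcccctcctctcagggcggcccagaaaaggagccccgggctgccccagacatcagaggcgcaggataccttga
Acot4, chr12:84038129-84038428, plus strand, match beginning 13 bases before the start: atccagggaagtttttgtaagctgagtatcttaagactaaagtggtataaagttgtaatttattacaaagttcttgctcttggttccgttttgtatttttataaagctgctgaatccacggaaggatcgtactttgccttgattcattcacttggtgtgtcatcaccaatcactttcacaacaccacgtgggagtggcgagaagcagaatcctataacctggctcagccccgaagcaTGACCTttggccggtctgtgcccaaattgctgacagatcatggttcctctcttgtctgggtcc
Nr1d2, chr14:18239057-18239356, minus strand, match beginning 77 bases before the start: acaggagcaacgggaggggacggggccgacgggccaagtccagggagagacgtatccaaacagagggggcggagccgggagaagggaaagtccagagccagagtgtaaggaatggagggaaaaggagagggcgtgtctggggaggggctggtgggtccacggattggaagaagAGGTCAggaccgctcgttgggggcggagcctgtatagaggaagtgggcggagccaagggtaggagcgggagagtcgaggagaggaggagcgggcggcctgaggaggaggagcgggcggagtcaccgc
Arntl, the second of its 2 listed promoters, chr7:113207261-113207560, plus strand, match beginning at base 32 after the start: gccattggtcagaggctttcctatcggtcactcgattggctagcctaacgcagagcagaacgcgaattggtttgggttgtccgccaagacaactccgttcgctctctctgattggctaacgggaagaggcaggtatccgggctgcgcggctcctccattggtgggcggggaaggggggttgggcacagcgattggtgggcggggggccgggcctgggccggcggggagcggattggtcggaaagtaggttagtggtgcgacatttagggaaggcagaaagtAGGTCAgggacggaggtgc
Nfil3, chr13:52980990-52981289, minus strand, match beginning 12 bases before the start: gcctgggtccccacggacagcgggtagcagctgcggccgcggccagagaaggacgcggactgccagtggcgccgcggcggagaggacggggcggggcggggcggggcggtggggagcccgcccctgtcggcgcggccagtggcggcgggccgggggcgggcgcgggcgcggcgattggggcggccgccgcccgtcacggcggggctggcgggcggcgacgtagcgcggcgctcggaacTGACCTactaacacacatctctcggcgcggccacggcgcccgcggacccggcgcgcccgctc

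AGGTCA was searched on both strands. It stood in the promoters of 759 of 4751 tested genes with an entry (16.0%), and in 4900 of all 27025 genes with one (18.1%). It stood in 2 of 14 peroxisomal beta-oxidation genes (14.3%, Acot3 and Acot4), in 4 of 20 mitochondrial beta-oxidation genes (20.0%), in 3 of 8 acyl-CoA thioesterase genes (37.5%) and in 5 of 11 clock genes (45.5%: Arntl, Clock, Nampt, Nfil3 and Nr1d2). Match and movement did not go together throughout the clock list. Nr1d1, Npas2 and Cry1 moved in this step and held no match, and Bhlhe40, which also moved, had no entry. Clock and Nampt held a match and were not among the genes that moved. The thioesterase and peroxisomal lists share Acot3, Acot4 and Acot8. The full direct repeat, AGGTCA followed by any single base and AGGTCA again, stood on either strand in 13 of the 27025 genes (0.048%) and 4 of the 4751 (0.084%). It was in no promoter of those lists nor in the 2 ketogenesis genes with an entry. Of the 2 listed promoters of Arntl, only the second, printed above, held a match. A match describes the letters in these windows only.

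A gene was tested where at least 6 of the 12 libraries reached 0.5 RPKM, which kept 6321 genes. Of these, 6 passed through the 2 g/L libraries alone and 2 through those at 1 g/L alone, every library of the other dose being under 0.5 RPKM, so a difference was built into their selection. The list members concerned are Acot2, Acot3 and Atf3, all through 2 g/L, and their values are given as a description. A difference below is 2 g/L minus 1 g/L on the log2(RPKM + 1) scale, which shrinks the apparent change of genes with low RPKM. "Rose" and "fell" mean an adjusted p under 0.05 in limma's moderated test, Benjamini-Hochberg adjusted over the 6321 genes. Of the tested genes, 1638 were called (25.9%), with 1313 that rose (20.8%) and 325 that fell (5.14%). Most changes were small. The median called rise was 0.29 and the median called fall −0.35 on the log2 scale, while 62 rises and 14 falls exceeded 1. In 581 genes all 6 libraries at 2 g/L lay above all 6 at 1 g/L (9.19%), and in 132 all 6 lay below (2.09%). Of these, 569 (9.0% of all tested) and 127 (2.01%) were also called.

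The split of calls between rises and falls depended on scaling, because the median of all tested genes lay at 0.068 with RPKM as deposited. Median-ratio factors moved that median to −0.0042 and gave 663 rises and 625 falls (10.5% and 9.89%), so that rises made up 51.5% of the calls instead of 80.2%. All 663 of those rises and all 325 falls of the deposited scale were called on both scales. Small shared rises, such as those of mitochondrial and translation genes, are therefore given with both scalings. Among the 9 libraries tagged L2, 432 genes rose and 151 fell (6.83% and 2.39%). Of the 583 called there, 560 (8.86% of all genes) were called with the same sign in the 12 libraries, which is 96.1% of the L2 calls and 34.2% of the 12-library calls. All 1638 genes called in the 12 libraries had the same sign of difference within L2, where the median SE was 1.21 times as large. The L2 fit reuses all 6 libraries at 2 g/L and 3 of the 6 at 1 g/L. Agreement between these fits is therefore favoured beforehand and is no independent check of the calls. Replicate 78 was the lowest library at 2 g/L in Cyp4a14, Cyp4a10 and Ehhadh, described next. The check for outlying libraries given near the end did not flag it in these genes. Estimated depth was similar, about 24200000 to 26300000 reads per library at 2 g/L and 23300000 to 25600000 at 1 g/L, an approximate figure from the steps between low RPKM values.

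Cyp4a14 and Cyp4a10, which add a hydroxyl group to the far end of fatty acids, had larger differences than the other members described below. Cyp4a14 (chromosome 4, 115486200 to 115496158), a fatty acid omega-hydroxylase, lay at 173 to 1127 RPKM (median 746) at 2 g/L, against 0.708 to 6.62 RPKM (median 2.17) at 1 g/L (log2 difference 7.56, SE 0.45, adjusted p = 8.29e-07). Replicate 78, the lowest at 2 g/L, was still more than an order of magnitude above every library at 1 g/L. Cyp4a10 (chromosome 4, 115518287 to 115533649), a neighbour with the same activity, lay at 184 to 1151 RPKM (median 702.1) at 2 g/L, against 1.81 to 14.6 RPKM (median 6.13) at 1 g/L (log2 difference 6.47, SE 0.46, adjusted p = 3.54e-06). It showed the same order, with replicate 75 highest and replicate 78 lowest at 2 g/L. Cyp4a31 (3.68, SE 0.34) and Cyp4a32 (2.30, SE 0.24) rose too, each with all 6 libraries above. These genes are near copies of each other, and how reads that fit several of them were counted is not known here, so their separate values are uncertain. Aldh3a2, which oxidises fatty aldehydes, reached 121 ± 58.1 RPKM at 2 g/L and 17.4 ± 3.18 RPKM at 1 g/L (SD, n = 6 each; log2 difference 2.56, SE 0.32, adjusted p = 0.000141). The list of Cyp4 hydroxylases and aldehyde clearance had 8 of 14 tested members that rose, where 20.8% of all genes did, and 2 that fell, where 5.14% did, Cyp4v3 (−0.91) and Cyp4f14 (−0.49). With L2 libraries only it had 7 rises and 1 fall, beside 6.83% and 2.39% of all genes.

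Peroxisomal beta-oxidation, which shortens very long and dicarboxylic fatty acids, rose in 17 of its 19 tested genes, where 20.8% of all genes rose. Its median difference was 1.01 beside 0.068 over all genes. Without Acot3 the count was 16 of 18 and the median 0.98. Ehhadh (chromosome 16, 21761285 to 21787834), the bifunctional hydratase and dehydrogenase whose promoter is shown above, lay at 165 to 1559 RPKM (median 1025) at 2 g/L, against 30.1 to 43.7 RPKM (median 41) at 1 g/L (log2 difference 4.31, SE 0.42, adjusted p = 4.68e-05). The 1 g/L libraries lay close together, while those at 2 g/L spread widely, replicate 78 being lowest at 165 RPKM and the next lowest at 673 RPKM. Acaa1b, a thiolase, lay at 259 to 1156 RPKM (median 812) at 2 g/L, against 88.9 to 130.2 RPKM (median 101) at 1 g/L (log2 difference 2.79, SE 0.28, adjusted p = 4.92e-05). Its groups did not overlap either. Eci2, Ech1 and Decr2, which handle double bonds, differed by 1.39, 1.13 and 1.08, and Abcd3, a transporter of the peroxisomal membrane, by 1.04. The pair that did not pass were Acox3 (−0.023, adjusted p = 0.871) and Amacr (0.16, adjusted p = 0.131), which act on branched-chain substrates. In 12 of the 19 genes all 6 libraries at 2 g/L lay above, beside 9.19% of all genes. Acot3 is one of the 12, and its lack of overlap was fixed by its selection. Within L2 12 genes rose, 15 with median-ratio factors and 17 without replicate 78, all counted over the 19 with Acot3. Of all genes, 6.83% rose within L2 and 10.5% with median-ratio factors. The mean score of the list per library, taken relative to the 1 g/L mean, was 0.51 in replicate 78, the lowest at 2 g/L, against at most 0.15 at 1 g/L.

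Acyl-CoA thioesterases, which release free fatty acid from coenzyme A, were mostly higher at 2 g/L. Acot1, a cytosolic enzyme, lay at 6.04 to 72.8 RPKM (median 39.4) at 2 g/L, against 1.19 to 3.09 RPKM (median 2.11) at 1 g/L (log2 difference 3.46, SE 0.45, adjusted p = 0.000183). Acot2, its mitochondrial relative, lay at 1.73 to 26.4 RPKM (median 14) at 2 g/L, against 0.294 to 0.481 RPKM (median 0.397) at 1 g/L. The peroxisomal Acot3 lay at 0.665 to 8.26 RPKM (median 2.68) at 2 g/L, against 0.0285 to 0.0836 RPKM (median 0.0471) at 1 g/L. Neither reached 0.5 RPKM in any library at 1 g/L, so both were tested only because of their level at 2 g/L. The peroxisomal Acot4 rose (1.58, SE 0.20), with all 6 libraries above. These 4 genes lie in a row on chromosome 12 between 83987861 and 84060400 and are similar in sequence, so reads may be shared among them. Without Acot2 and Acot3, 5 of 7 tested thioesterases rose (median 0.73), beside 20.8% of all genes. Acot7 (0.22, adjusted p = 0.0726) and Acot13 (0.25, adjusted p = 0.0736) did not pass.

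Mitochondrial beta-oxidation and its carnitine shuttle rose in 18 of 24 tested genes, where 20.8% of all genes did, with a median of 0.57. The 1 gene that fell was Acadsb, which acts on branched-chain amino acid products (−0.43, SE 0.073). Crat, which moves short acyl groups between carnitine and coenzyme A, lay at 6.44 to 20.7 RPKM (median 15.6) at 2 g/L, against 2.47 to 4.41 RPKM (median 3.24) at 1 g/L (log2 difference 1.84, SE 0.22, adjusted p = 0.000123). Eci1, an enoyl-CoA isomerase, averaged 81.4 ± 23.2 RPKM at 2 g/L and 29.8 ± 3.14 RPKM at 1 g/L (1.37, SE 0.18), and Decr1, a dienoyl-CoA reductase, 57.8 ± 12 RPKM at 2 g/L and 25.8 ± 2.2 RPKM at 1 g/L (1.11, SE 0.13). Acadm, the medium-chain dehydrogenase, differed by 1.00, Cpt2, which rebuilds acyl-CoA in the matrix, by 0.89, and Hadhb, of the trifunctional protein, by 0.88. Cpt1a, the liver gatekeeper of the shuttle, differed by only 0.29 (SE 0.093, adjusted p = 0.0345). Within L2 14 rose, and with median-ratio factors 16, beside 6.83% and 10.5% of all genes.

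Of 5 tested ketone body genes 3 rose, beside 20.8% of all genes, with a median of 0.38. Acat1, which supplies acetoacetyl-CoA, averaged 59.7 ± 4.01 RPKM at 2 g/L and 45.8 ± 3.53 RPKM at 1 g/L (0.38, SE 0.067). All 6 of its libraries at 2 g/L lay above those at 1 g/L, and it was called within L2. Bdh1 (0.14, adjusted p = 0.208) and Bdh2 (−0.39, adjusted p = 0.0672), dehydrogenases of hydroxybutyrate, did not pass. Without replicate 78 at 2 g/L, 1 member of the list was called as a fall. Fgf21, a hormone that PPARα induces in fasting, was too low to test, at 0.344 to 0.985 RPKM (median 0.598) at 2 g/L and 0.143 to 0.466 RPKM (median 0.225) at 1 g/L.

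**Figure D1:**
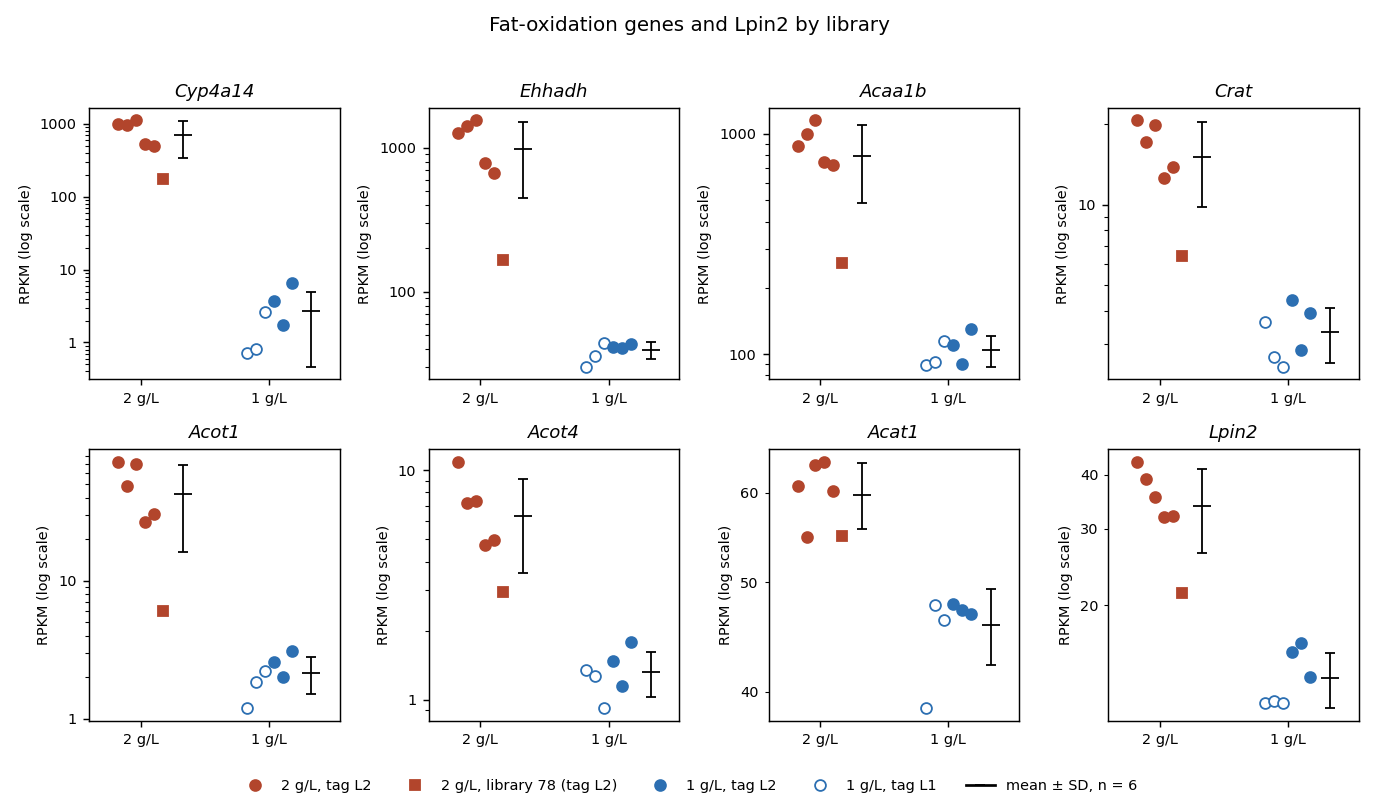
RPKM (log axis) per library of 8 genes of fatty acid breakdown and handling in the 2 g/L and the 1 g/L group, drawn as filled circles for tag L2, a square for replicate 78, open circles for tag L1 and black marks for the mean ± SD of 6 libraries. In all 8 genes the 6 libraries at 2 g/L lie above the 6 at 1 g/L, and the square is the lowest 2 g/L point in Cyp4a14, where it stands at 173 RPKM.

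Genes for taking up, storing and releasing fat also rose. Of 22 tested, 15 rose, beside 20.8% of all genes, with a median of 0.63. Mgll, a monoglyceride lipase, lay at 21.7 to 43.7 RPKM (median 32.9) at 2 g/L, against 11.5 to 15 RPKM (median 12.8) at 1 g/L (log2 difference 1.28, SE 0.14, adjusted p = 8.29e-05). Hsd17b11, a droplet protein, averaged 60.2 ± 18.9 RPKM at 2 g/L and 21.6 ± 1.61 RPKM at 1 g/L (1.37, SE 0.18), and Fitm1, which helps droplets bud, 6.02 ± 3.63 RPKM at 2 g/L and 1.11 ± 0.26 RPKM at 1 g/L (1.58, SE 0.27). Fabp1, the liver fatty acid binding protein, differed by 1.19, and the acyl-CoA synthetases Acsl3, Acsl4 and Acsl5 by 0.78, 0.66 and 0.64. G0s2, an inhibitor of triglyceride lipase, lay at 19.7 to 78.3 RPKM (median 51.3) at 2 g/L, against 7.81 to 26 RPKM (median 13.9) at 1 g/L (log2 difference 1.54, SE 0.38, adjusted p = 0.00987). Its groups overlapped, and within L2 it was not called (adjusted p = 0.0862). Cd36, a fatty acid transporter, behaved alike (1.24, adjusted p = 0.012, within L2 0.142). Over the list 10 rose within L2, beside 6.83% of all genes.

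Genes for the synthesis of fatty acids and triglycerides rose as well. Of 24 tested, 13 rose and 1 fell, beside 20.8% and 5.14% of all genes, with a median of 0.27. Fasn, fatty acid synthase, lay at 43.1 to 99.8 RPKM (median 62.3) at 2 g/L, against 18.3 to 37.7 RPKM (median 22) at 1 g/L (log2 difference 1.31, SE 0.20, adjusted p = 0.000529). Me1, which supplies NADPH, averaged 46.1 ± 16 RPKM at 2 g/L and 15.3 ± 3.5 RPKM at 1 g/L (1.49, SE 0.22). Acacb (1.02) and Acaca (0.71), the acetyl-CoA carboxylases, Gpam (1.05), which starts glycerolipid synthesis, and the elongases Elovl5 (1.14) and Elovl6 (0.96) rose, and all were called within L2. Acly, ATP citrate lyase, did not pass (0.16, adjusted p = 0.514), nor did Dgat1 (0.15, adjusted p = 0.0905) or Dgat2 (−0.24, adjusted p = 0.0632), the final acyltransferases. The member that fell, Elovl3, a male-biased and clock-linked elongase, lay at 28.8 to 89.6 RPKM (median 76.6) at 2 g/L, against 146 to 216 RPKM (median 183) at 1 g/L (log2 difference −1.43, SE 0.22, adjusted p = 0.000529). Its groups did not overlap, and replicate 78 was the lowest by a wide gap, at 28.8 RPKM.

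The lipins, phosphatidate phosphatases that make diacylglycerol, differed among themselves. Lpin2 (chromosome 17, 71183532 to 71249818) lay at 21.4 to 42.9 RPKM (median 33.8) at 2 g/L, against 11.9 to 16.3 RPKM (median 12.9) at 1 g/L (log2 difference 1.24, SE 0.14, adjusted p = 9.77e-05), with no overlap. Lpin1 lay at 4.19 to 8.12 RPKM (median 5.97) at 2 g/L, against 3.87 to 9.73 RPKM (median 8.34) at 1 g/L, and its groups overlapped (log2 difference −0.27, SE 0.18, adjusted p = 0.3). Without 1 g/L replicate 49 the Lpin1 difference was −0.44 with an adjusted p of 0.0309, so whether it is called rests on that library. Lpin3, at low levels, rose by 0.19 (adjusted p = 0.0237).

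Cholesterol and bile acid genes differed in how many members were called. In cholesterol synthesis 5 of 20 rose and 1 fell, near the 20.8% and 5.14% of all genes, and 9 rose without 1 g/L replicate 52. Hsd17b7, a keto-reductase of the pathway, averaged 10.5 ± 1.76 RPKM at 2 g/L and 6.78 ± 0.853 RPKM at 1 g/L (0.55, SE 0.10). The middle of the pathway did not pass, with differences of 0.077 for Fdft1, −0.0035 for Cyp51 and 0.11 for Fdps. In bile acid synthesis and transport 8 of 23 rose (34.8%) and 6 fell (26.1%), beside 20.8% and 5.14% of all genes. Within L2 4 rose and 0 fell, beside 6.83% and 2.39% of all genes. The transporters Abcb4, which exports phosphatidylcholine into bile, Abcc3, which exports bile acids back to blood, and Abcg5, a sterol exporter, averaged 56.5 ± 14.5 RPKM, 31 ± 7.47 RPKM and 18.3 ± 3.36 RPKM at 2 g/L, against 28.7 ± 2.17 RPKM, 14.4 ± 2.75 RPKM and 9.22 ± 1.21 RPKM at 1 g/L (SD, n = 6 each). All 3 had no overlap between groups and differed by 0.91, 1.04 and 0.90. Cyp7a1, the rate-limiting enzyme of bile acid synthesis, lay at 6.26 to 20.6 RPKM (median 10.2) at 2 g/L, against 2.03 to 11.8 RPKM (median 4.17) at 1 g/L (log2 difference 1.12, SE 0.32, adjusted p = 0.0196). Its groups overlapped, and it was not called within L2 (adjusted p = 0.126). Cyp7b1 (−0.73) and Cyp39a1 (−0.67), oxysterol hydroxylases, and Baat (−0.30), which conjugates bile acids, fell in the 12 libraries. Within L2 their adjusted p were 0.0684, 0.0866 and 0.0763.

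Apolipoproteins split. Of 21 tested lipoprotein genes, 5 rose and 5 fell, beside 20.8% and 5.14% of all genes. Without 1 g/L replicate 51 or 2 g/L replicates 73, 74 or 75 only 3 fell. Apoa4 lay at 12.2 to 20.9 RPKM (median 14.9) at 2 g/L, against 28.8 to 35.6 RPKM (median 34.2) at 1 g/L (log2 difference −1.08, SE 0.12, adjusted p = 6.63e-05), with no overlap and a call within L2. Apoh fell as well (−0.48, SE 0.084). Mttp, which loads triglyceride onto apolipoprotein B, averaged 85.7 ± 12.5 RPKM at 2 g/L and 57.9 ± 4.62 RPKM at 1 g/L (log2 difference 0.55, SE 0.10, adjusted p = 0.00159), and its groups overlapped slightly. Apoa1 (−0.24, adjusted p = 0.0589), Apob (−0.18, adjusted p = 0.0675) and Apoe (−0.15, adjusted p = 0.303), the bulk proteins of lipoproteins, did not pass.

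Mitochondrial genes outside fat oxidation rose widely but by little. In complex I of the respiratory chain, 27 of 37 tested subunits rose (median 0.25), and in complexes III to V 22 of 29 (median 0.28). Of all genes, 20.8% rose. From complex III this list holds only Cyc1, together with the electron carrier Cycs, so the count is mostly about complexes IV and V. Ndufb8 averaged 88.9 ± 8.05 RPKM at 2 g/L and 61.7 ± 6.94 RPKM at 1 g/L (log2 difference 0.52, SE 0.084, adjusted p = 0.000761), Cyc1 of complex III 76.3 ± 6.47 RPKM at 2 g/L and 55.6 ± 3.89 RPKM at 1 g/L (0.45, SE 0.07), and Atp5k of the ATP synthase 201 ± 14.7 RPKM at 2 g/L and 144 ± 11.7 RPKM at 1 g/L (0.47, SE 0.074). Each of these 3 had all 6 libraries above. Mitochondrial ribosomal proteins rose in 43 of 77 (median 0.21), with Mrps18b at 27.9 ± 1.9 RPKM at 2 g/L and 19.1 ± 2.39 RPKM at 1 g/L (0.53, SE 0.08). Of 19 citric acid cycle and pyruvate entry genes, 12 rose (median 0.27), among them Cs and Dlst (0.52 and 0.58). These counts shrank with median-ratio factors, to 13, 11, 17 and 5, and within L2 to 15, 15, 16 and 5, beside 10.5% and 6.83% of all genes that rose in those fits. With median-ratio factors 1 complex I member fell. Translation factors rose in 25 of 43 (median 0.19), with 9 under median-ratio factors, where 10.5% of all genes rose, and 3 within L2, a share near the 6.83% of all genes. Eif6, which keeps the large ribosomal subunit apart, averaged 18.2 ± 1.23 RPKM at 2 g/L and 12.9 ± 1.01 RPKM at 1 g/L (0.46, SE 0.061) and was called within L2. In glycolysis and glycogen genes 9 of 23 rose and 1 fell, but 5 rose without 1 g/L replicate 49 or 2 g/L replicate 77. Gbe1, the glycogen branching enzyme, averaged 25.6 ± 5.04 RPKM at 2 g/L and 13.3 ± 1.84 RPKM at 1 g/L (0.88, SE 0.12) and Gapdh 257 ± 31.8 RPKM at 2 g/L and 178 ± 13.1 RPKM at 1 g/L (0.52, SE 0.087).

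**Figure D2:**
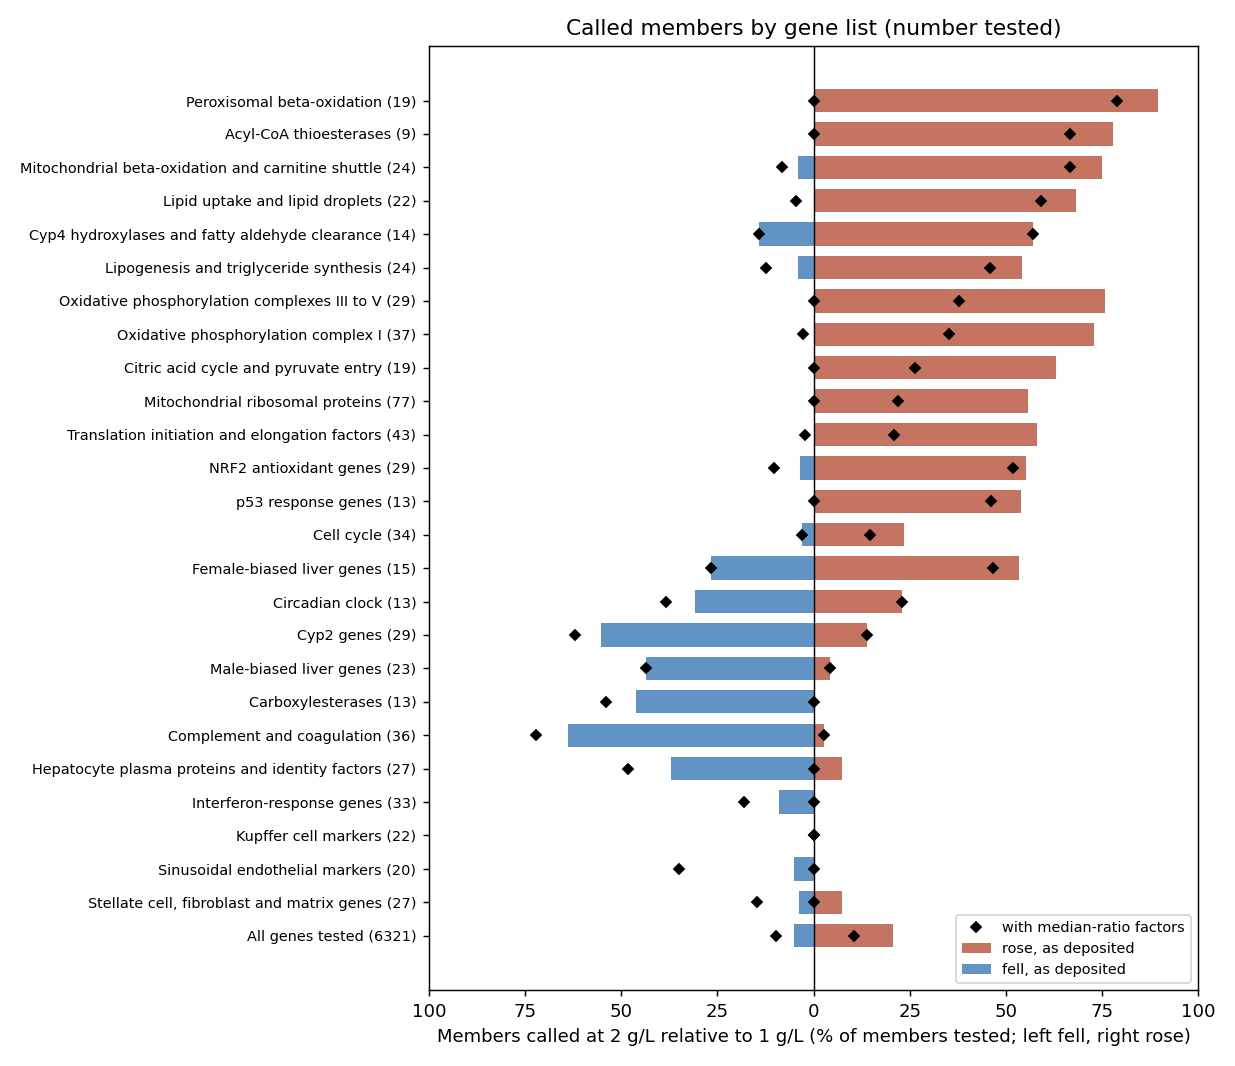
Percent of the tested members of 26 gene lists that rose (bars to the right) or fell (bars to the left) at 2 g/L relative to 1 g/L, with diamonds for the same percent under median-ratio factors. Peroxisomal beta-oxidation, with 17 of 19 members risen, and complement and coagulation, with 23 of 36 fallen, have the longest bars on either side, and the diamonds of mitochondrial and translation lists lie well inside their bars. The thioesterase bar includes Acot2 and Acot3, and the peroxisomal and female-biased bars Acot3.

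Of 29 NRF2 antioxidant genes 16 rose and 1, Gsta3, fell, beside 20.8% and 5.14% of all genes, with a median of 0.42. NRF2 is the transcription factor that switches on enzymes against oxidants and electrophiles. Ephx1, microsomal epoxide hydrolase, lay at 108 to 271 RPKM (median 182) at 2 g/L, against 61.3 to 102 RPKM (median 71.1) at 1 g/L (log2 difference 1.29, SE 0.18, adjusted p = 0.000318). Gsta1 (1.57, SE 0.28), a glutathione transferase with close copies, and Nqo1 (0.73, SE 0.13), a quinone reductase, rose and were called within L2. Gclc (0.091, adjusted p = 0.735) and Gclm (−0.037, adjusted p = 0.687), which make glutathione and are classic targets of the factor, and Hmox1 (0.28, adjusted p = 0.335) did not pass. The list also holds Me1, Abcc2 and Abcc3, which other lists count too. Within L2 7 rose, beside 6.83% of all genes. With median-ratio factors 15 rose and 3 fell, beside 10.5% and 9.89% of all genes. The fall of Gsta3 (−0.27, adjusted p = 0.0375) was not called without 1 g/L replicate 50, 51 or 52, nor without 2 g/L replicate 73, 74 or 78.

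Targets of the xenobiotic receptors CAR and PXR did not move one way, with 9 of 21 risen and 9 fallen. Of all genes, 20.8% rose and 5.14% fell. Cyp2b9, a CAR target with female bias, lay at 1.45 to 12.6 RPKM (median 5.83) at 2 g/L, against 0.125 to 0.897 RPKM (median 0.271) at 1 g/L (log2 difference 2.33, SE 0.33, adjusted p = 0.000318). The groups did not overlap, and 2 g/L replicate 78 was highest at 12.6 RPKM. The 1 g/L median of Cyp2b9 was under 0.5 RPKM, and the gene met the filter through its 2 g/L libraries. A difference was thus partly built into its selection. Cyp1a2 fell to 97.4 ± 13.8 RPKM, against 169 ± 9.77 RPKM at 1 g/L (log2 difference −0.80, SE 0.092, adjusted p = 0.000109), with no overlap. Cyp3a11, a main PXR target, did not pass (−0.27, adjusted p = 0.431). In the Cyp2 family as a whole 16 of 29 fell and 4 rose. Within L2 6 fell and 2 rose, beside 2.39% and 6.83% of all genes. Cyp2c68 (−1.14, SE 0.27) fell with overlapping groups. Cyp2c40 lay at 0.532 to 27.8 RPKM (median 6.44) at 2 g/L, against 5.39 to 73.2 RPKM (median 35.1) at 1 g/L (log2 difference −2.43, SE 0.70, adjusted p = 0.0203), where the high value at 2 g/L was again replicate 78. Cyp2c genes share sequence, so their separate values are uncertain. Carboxylesterases, which split esters, fell in 6 of 13. Ces2a lay at 20.1 to 40 RPKM (median 27.8) at 2 g/L, against 48.1 to 77.2 RPKM (median 59.9) at 1 g/L (log2 difference −1.09, SE 0.17, adjusted p = 0.000694), Ces1b at 15.2 to 27.7 RPKM (median 19.2) at 2 g/L, against 36.8 to 45 RPKM (median 42.1) at 1 g/L (log2 difference −1.06, SE 0.12, adjusted p = 0.000109), and both had no overlap. Without replicate 78, 3 carboxylesterases rose beside the 6 that fell.

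Genes with sex bias in liver were counted by direction, beside 20.8% of all genes that rose and 5.14% that fell. Male-biased genes fell in 10 of 23 and rose in 1, Cyp4a12b (1.20, SE 0.27), with a median of −0.33. Female-biased genes rose in 8 of 15 and fell in 4, with a median of 0.86. Without Acot3 the rises were 7 of 14 and the median 0.70. Mup21 (chromosome 4, 62147832 to 62150841), a major urinary protein, lay at 6.55 to 40.6 RPKM (median 18.9) at 2 g/L, against 43.9 to 115 RPKM (median 96.9) at 1 g/L (log2 difference −2.16, SE 0.34, adjusted p = 0.000694). Its highest 2 g/L library was just below its lowest 1 g/L library. Hsd3b5, a male-specific steroid reductase, lay at 34 to 95.2 RPKM (median 62.9) at 2 g/L, against 112 to 134 RPKM (median 127) at 1 g/L (log2 difference −0.97, SE 0.20, adjusted p = 0.00346), without overlap, and was at an adjusted p of 0.0519 within L2. Cyp2a4, a female-biased steroid hydroxylase, lay at 1.81 to 12.1 RPKM (median 4.29) at 2 g/L, against 0.0782 to 1.44 RPKM (median 0.235) at 1 g/L (log2 difference 1.98, SE 0.34, adjusted p = 0.00115). Like Cyp2b9, it met the 0.5 RPKM filter through its 2 g/L libraries, so a difference was partly built into its selection. The female-biased risers included Cyp4a10, Acot3, Acot4 and Abcd2, which are also genes of fat oxidation and are counted above, while the falls were Cyp2c40, Cyp2c69, Cyp3a44 and Fmo2. The other urinary proteins Mup1 (0.34, adjusted p = 0.474) and Mup2 (0.32, adjusted p = 0.542) did not pass, and Mup genes share most of their sequence.

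Complement and coagulation factors, which hepatocytes secrete into plasma, fell in 23 of 36 tested genes, where 5.14% of all genes did, with a median of −0.33. In 18 of the 36 the 6 libraries at 2 g/L all lay below, beside 2.09% of all genes. A single gene, Cpn1, rose (0.29). C9 (chromosome 15, 6445346 to 6498825), the pore former that ends the complement cascade, lay at 83.7 to 118 RPKM (median 101) at 2 g/L, against 180.0 to 266 RPKM (median 219) at 1 g/L (log2 difference −1.09, SE 0.11, adjusted p = 4.92e-05). C8b, which joins the complex just before it, lay at 58 to 84.6 RPKM (median 60.6) at 2 g/L, against 122 to 154 RPKM (median 127) at 1 g/L (log2 difference −0.96, SE 0.11, adjusted p = 8.83e-05). The groups stood well apart for both genes, and in C8b replicate 50 was above the other 1 g/L libraries. C8g (−0.73), C8a (−0.56) and Hc (−0.49), which encodes complement C5, fell too, as did C2 (−0.73, SE 0.10) and C1ra (−0.51) of the classical pathway. C3 (0.028, adjusted p = 0.914), the hub of the cascade, and the lectins Mbl1 and Mbl2 (0.031 and 0.023) did not pass. Among clotting factors, F11 averaged 16.4 ± 3.89 RPKM at 2 g/L and 30.3 ± 3.09 RPKM at 1 g/L (log2 difference −0.87, SE 0.13, adjusted p = 0.000483) and F2, prothrombin, 233 ± 32.7 RPKM at 2 g/L and 320.1 ± 11.3 RPKM at 1 g/L (−0.47, SE 0.087), while the fibrinogen genes Fga, Fgb and Fgg lay at −0.014, −0.087 and −0.091 with adjusted p of 0.955, 0.663 and 0.66. Within L2 15 genes fell, 26 with median-ratio factors and 24 without replicate 78. Of all genes, 2.39% fell within L2 and 9.89% with median-ratio factors.

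Other secreted proteins were counted in further lists, beside 5.14% of all genes that fell and 20.8% that rose. In hepatocyte plasma proteins and identity factors 10 of 27 fell and 2 rose (median −0.23). Those that fell include Fetub (−0.50, SE 0.095), Gc (−0.35) and Ahsg (−0.44), while the factors Hnf4a, Cebpa and Foxa2 lay at 0.033, −0.13 and −0.18 and did not pass. Within L2 3 fell, beside 2.39% of all genes. Acute-phase genes showed no common direction, with 3 of 22 fallen and 1 risen. Mug1, a plasma protease inhibitor of the macroglobulin family, lay at 295 to 452 RPKM (median 365) at 2 g/L, against 596 to 799.6 RPKM (median 744) at 1 g/L (log2 difference −0.96, SE 0.11, adjusted p = 8.83e-05), with no overlap. Il1rap, a subunit of the interleukin 1 receptor, averaged 6.48 ± 0.895 RPKM at 2 g/L and 11 ± 0.5 RPKM at 1 g/L (log2 difference −0.69, SE 0.072, adjusted p = 5.96e-05), and Il6ra, the interleukin 6 receptor, 3.65 ± 0.67 RPKM at 2 g/L and 6.57 ± 1.84 RPKM at 1 g/L (−0.68, SE 0.14). Lcn2, an iron-binding acute-phase protein, lay at 5.16 to 125 RPKM (median 18.1) at 2 g/L, against 1.14 to 8.35 RPKM (median 2.87) at 1 g/L (log2 difference 2.54, SE 0.69, adjusted p = 0.0158), but its libraries overlapped and it was not called within L2 (adjusted p = 0.0684). Without 2 g/L replicate 76, 4 acute-phase genes rose.

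**Figure D3:**
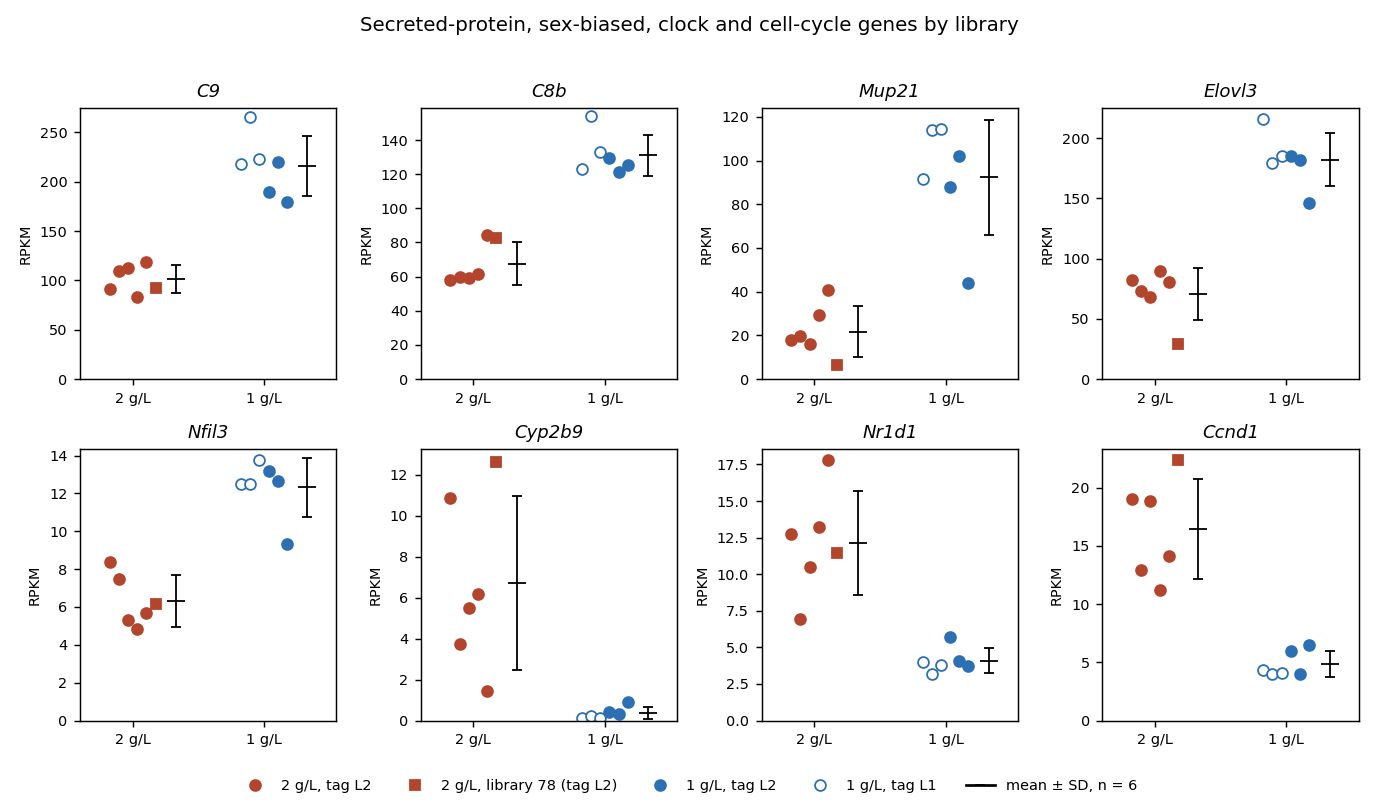
RPKM (linear axis) per library of C9, C8b, Mup21, Elovl3, Nfil3, Cyp2b9, Nr1d1 and Ccnd1 in the 2 g/L and the 1 g/L group, drawn as filled circles for tag L2, a square for replicate 78, open circles for tag L1 and black marks for the mean ± SD of 6 libraries. The first 5 genes lie lower and the last 3 higher at 2 g/L with no overlap, and the square is the lowest point of Elovl3 and the highest of Cyp2b9 and Ccnd1.

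Among clock genes both directions were seen. Of 13 tested, 3 rose and 4 fell, all 7 without overlap between the groups and all 7 called within L2. Nr1d1 (chromosome 11, 98767932 to 98775377) lay at 6.94 to 17.8 RPKM (median 12.1) at 2 g/L, against 3.22 to 5.71 RPKM (median 3.88) at 1 g/L (log2 difference 1.34, SE 0.17, adjusted p = 0.000145). Nr1d2, whose promoter is among those shown, averaged 7.58 ± 1.05 RPKM at 2 g/L and 3.5 ± 0.561 RPKM at 1 g/L (log2 difference 0.93, SE 0.092, adjusted p = 4.68e-05). Bhlhe40 (chromosome 6, 108660629 to 108666925), a repressor of the clock activators, averaged 9.23 ± 2.5 RPKM at 2 g/L and 3.72 ± 0.508 RPKM at 1 g/L (log2 difference 1.09, SE 0.14, adjusted p = 0.000183). On the other side, Nfil3, a repressor of D-box genes, lay at 4.86 to 8.39 RPKM (median 5.9) at 2 g/L, against 9.32 to 13.8 RPKM (median 12.6) at 1 g/L (log2 difference −0.88, SE 0.12, adjusted p = 0.000208). Arntl, which encodes BMAL1, averaged 5.98 ± 0.655 RPKM at 2 g/L and 8.39 ± 0.857 RPKM at 1 g/L (log2 difference −0.43, SE 0.076, adjusted p = 0.00144), Npas2, which can replace CLOCK as its partner, 0.815 ± 0.138 RPKM at 2 g/L and 1.42 ± 0.143 RPKM at 1 g/L (−0.42, SE 0.06), and the repressor Cry1 2.84 ± 0.413 RPKM at 2 g/L and 3.95 ± 0.444 RPKM at 1 g/L (−0.37, SE 0.077). Clock itself (0.045, adjusted p = 0.576) and Cry2 (−0.061, adjusted p = 0.773) did not pass. The labels give no hour of sampling, and a part of it in these differences was not tested.

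Ccnd1 (chromosome 7, 144929931 to 144939831), cyclin D1, which opens the G1 phase, lay at 11.2 to 22.4 RPKM (median 16.5) at 2 g/L, against 4.02 to 6.53 RPKM (median 4.22) at 1 g/L (log2 difference 1.56, SE 0.16, adjusted p = 5.47e-05), with no overlap and replicate 78 highest. The cell cycle list as a whole had 8 of 34 risen and 1 fallen, close to the 20.8% of all genes that rose. That count was 5 without 1 g/L replicate 49, 51 or 52, 16 without 1 g/L replicate 54, and 1, Ccnd1 itself, within L2. Mki67, a marker of cycling cells, did not pass (0.37, adjusted p = 0.217). Response genes of p53 rose in 7 of 13 (median 0.30), with 5 within L2, beside 20.8% and 6.83% of all genes. Fas, a death receptor, averaged 6.56 ± 1.61 RPKM at 2 g/L and 3.81 ± 0.412 RPKM at 1 g/L (0.63, SE 0.12) and Ccng1, cyclin G1, 9.71 ± 1.53 RPKM at 2 g/L and 6.43 ± 0.409 RPKM at 1 g/L (0.52, SE 0.087), while Cdkn1a, the cell cycle inhibitor p21, did not pass (0.30, adjusted p = 0.144). Histone genes rose in 9 of 29, where 20.8% of all genes did, but in 3 with median-ratio factors and 2 within L2, which are shares near the 10.5% and 6.83% of all genes. Nucleolar factors rose in 8 of 31, near the share of all genes, in 5 with median-ratio factors and in 1 within L2, which is below the 6.83% of all genes.

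Stress lists differed in their shares of called genes. ATF4 targets, the genes of amino acid shortage, rose in 5 of 20 and fell in 2 without Atf3, beside 20.8% and 5.14% of all genes, and within L2 2 of the 21 with Atf3 rose. Gdf15, a stress hormone, averaged 2.19 ± 0.954 RPKM at 2 g/L and 0.68 ± 0.241 RPKM at 1 g/L (log2 difference 0.88, SE 0.17, adjusted p = 0.00217) and Atf3, tested only because of its level at 2 g/L, 1.1 ± 0.435 RPKM at 2 g/L and 0.337 ± 0.112 RPKM at 1 g/L. The defining members Asns (0.42, adjusted p = 0.246) and Ddit3 (−0.11, adjusted p = 0.519) did not pass. Of 21 chaperones of the endoplasmic reticulum 1 rose and 2 fell, beside 20.8% and 5.14% of all genes. Hspa5, the main chaperone, differed by 0.016 (adjusted p = 0.965). Without replicate 78, 6 of the 21 chaperones fell. Heat shock proteins rose in 4 of 19, a share near the 20.8% of all genes, with Dnajb4 at 6.54 ± 0.626 RPKM at 2 g/L and 5.01 ± 0.537 RPKM at 1 g/L (0.33, SE 0.072). Immediate early genes rose in 4 of 13 and fell in 2 without Atf3, beside 20.8% and 5.14% of all genes. Within L2 4 of the 14 with Atf3 rose, beside 6.83% of all genes. Jun lay at 2.9 to 7.23 RPKM (median 4.52) at 2 g/L, against 0.834 to 2.6 RPKM (median 1.73) at 1 g/L (log2 difference 1.06, SE 0.19, adjusted p = 0.00166) and Klf10 averaged 3.35 ± 0.85 RPKM at 2 g/L and 1.31 ± 0.295 RPKM at 1 g/L (0.90, SE 0.13), both with no overlap. Egr1 lay at 0.277 to 3.08 RPKM (median 1.42) at 2 g/L, against 1 to 8.61 RPKM (median 4.34) at 1 g/L (log2 difference −1.01, SE 0.34, adjusted p = 0.0416), but its fall was lost when any of 8 single libraries was left out and within L2 (adjusted p = 0.429).

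Gstz1, glutathione transferase zeta, which breaks DCA down and also serves tyrosine breakdown, did not pass. It lay at 120.3 to 144 RPKM (median 127) at 2 g/L, against 121 to 141 RPKM (median 131) at 1 g/L (log2 difference −0.017, SE 0.065, adjusted p = 0.882), with fully overlapping groups, and its small difference changed sign in 4 of the alternatives. Of the list of 30 genes of DCA, tyrosine, glycine and one-carbon metabolism, 4 rose and 8 fell, beside 20.8% and 5.14% of all genes. Within L2 2 rose and 1 fell, beside 6.83% and 2.39%. Mat1a, which makes S-adenosylmethionine, averaged 445 ± 38.7 RPKM at 2 g/L and 299 ± 42.6 RPKM at 1 g/L (log2 difference 0.58, SE 0.10, adjusted p = 0.00112) and Grhpr, glyoxylate reductase, 89.7 ± 7.6 RPKM at 2 g/L and 58 ± 2.94 RPKM at 1 g/L (log2 difference 0.62, SE 0.066, adjusted p = 6.60e-05). Both had no overlap. Hao1 (−0.47, SE 0.12) and Agxt (−0.51, SE 0.11), which make and remove glyoxylate, fell in the 12 libraries and were not called within L2 (adjusted p = 0.0908 and 0.073). Among genes set by position in the lobule, pericentral genes fell in 5 of 15 and rose in 3, led by Lect2 (−0.86, SE 0.14) and Cyp1a2, and periportal genes rose in 4 of 15 and fell in 2, with Hal (−0.56, SE 0.14) among the falls. The rises of both lists lay near the 20.8% of all genes, while falls stood beside 5.14% of all genes. Glul, which marks the cells next to the central vein, did not pass (0.23, adjusted p = 0.101).

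Markers of other liver cells gave few calls, beside 20.8% of all genes that rose and 5.14% that fell. Of 22 Kupffer cell markers limma called 0, with 2 higher and 0 lower at an unadjusted p under 0.05, and their summed level was 124 to 247 RPKM at 2 g/L and 172 to 204 at 1 g/L. Without 2 g/L replicate 76, 5 of them rose. Of 20 markers of sinusoidal endothelium 1 fell (Lifr, −0.85, which hepatocytes express as well), yet 19 lay lower at 2 g/L, and the summed level, 152 to 181 RPKM at 2 g/L and 183 to 226 RPKM at 1 g/L, did not overlap. With median-ratio factors 7 fell, beside 9.89% of all genes. In bulk tissue fewer cells of a type and less RNA per cell cannot be told apart, and the part of a lower endothelial share in the falls above was not tested. Of 27 markers of stellate cells and matrix 2 rose, Lrat (0.47, SE 0.14), which stores vitamin A as esters, and Ngfr (0.19, SE 0.062), and Hand2 fell (−0.22, SE 0.077). All 3 had overlapping groups and none was called within L2, and with median-ratio factors the only calls were 4 falls. The summed level of all markers in this list was 130 to 162 RPKM at 2 g/L and 134 to 176 at 1 g/L, and that of erythroid genes 500 to 797 at 2 g/L and 538 to 871 at 1 g/L. Of 33 interferon-response genes 3 fell, with 6 without 2 g/L replicate 78 and 1 without 1 g/L replicate 50.

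How the step compared with the one below it was tested by the second difference, the change from 1 to 2 g/L minus the change from control to 1 g/L, both steps being 1 g/L wide. The steps share the 1 g/L libraries, so an error in those enters both with opposite sign. In 193 of the 6321 genes (3.05%) the second difference passed, positive in 138 (2.18%) and negative in 55 (0.87%). Of the positive ones 129 rose from 1 to 2 g/L, and of the negative ones 46 fell. The count was 83 without 1 g/L replicate 53 and 300 without 2 g/L replicate 78, so it rests in part on single libraries. Members of the fat lists were frequent beside the 2.18% of all genes. Positive were 10 of 19 peroxisomal, 9 of 24 mitochondrial, 5 of 14 Cyp4 and 7 of 24 lipogenesis genes. Of 9 thioesterases 4 were positive, Acot2 among them. Acot2 was tested only because of its level at 2 g/L, so a positive second difference was favoured by its selection. The 19 peroxisomal genes hold Acot3, tested for the same reason. Cyp4a14 averaged 0.925 ± 0.978 RPKM in controls, 2.69 ± 2.23 RPKM at 1 g/L, 714 ± 369.6 RPKM at 2 g/L and 1123 ± 305 RPKM at 3.5 g/L (SD, n = 6 each), and its second difference was 6.71 (SE 0.75, adjusted p = 9.84e-05). Ehhadh averaged 30.7 ± 5.01 RPKM, 39.1 ± 5.21 RPKM, 976 ± 528 RPKM and 1215 ± 374 RPKM over the same doses (3.97, adjusted p = 0.0025). For both genes the first step did not pass (adjusted p = 0.204 and 0.578).

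Some genes turned at 1 g/L. Lpin2 averaged 25.9 ± 3.31 RPKM in controls, 13.6 ± 1.99 RPKM at 1 g/L, 33.8 ± 7.41 RPKM at 2 g/L and 68.4 ± 7.07 RPKM at 3.5 g/L, which is a fall in the first step (−0.89, adjusted p = 0.000792) and a rise in the second, with a second difference of 2.12 (adjusted p = 9.84e-05). Bhlhe40 followed the same course, at 11.1 ± 3.46 RPKM, 3.72 ± 0.508 RPKM, 9.23 ± 2.5 RPKM and 8.81 ± 4.02 RPKM (2.39, adjusted p = 0.00072), and Klf10 likewise had a first step of −0.67 and a second of 0.90. Lpin1 was low from 1 g/L on, at 50.4 ± 16.9 RPKM in controls and 7.9 ± 2.17 RPKM, 6.27 ± 1.46 RPKM and 7.53 ± 1.83 RPKM at 1, 2 and 3.5 g/L. Its first step was −2.52 and its second difference 2.25 (adjusted p = 0.00184). Nr1d1 and Nr1d2 rose in both steps, by 0.99 and then 1.34 for Nr1d1 and by 0.68 and then 0.93 for Nr1d2, and their second differences did not pass (adjusted p = 0.577 and 0.448). Egr1, an immediate early transcription factor, rose in the first step (1.74, adjusted p = 0.00238) and had a negative second difference (−2.75, adjusted p = 0.00896). Negative second differences were also seen in Mup21 (−2.26), Hsd3b5 (−1.32) and Aox3, an aldehyde oxidase (−1.28), which had first steps of 0.11, 0.35 and 0.40, none called. F2 fell in both steps, by −0.48 and then −0.47 on the log2 scale. In the respiratory chain, mitochondrial ribosome and citric acid cycle lists the median first steps were 0.21 for complex I, 0.23 for complexes III to V, 0.15 for the mitochondrial ribosome and 0.048 for the citric acid cycle, beside median steps from 1 to 2 g/L of 0.25, 0.28, 0.21 and 0.27.

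**Figure D4:**
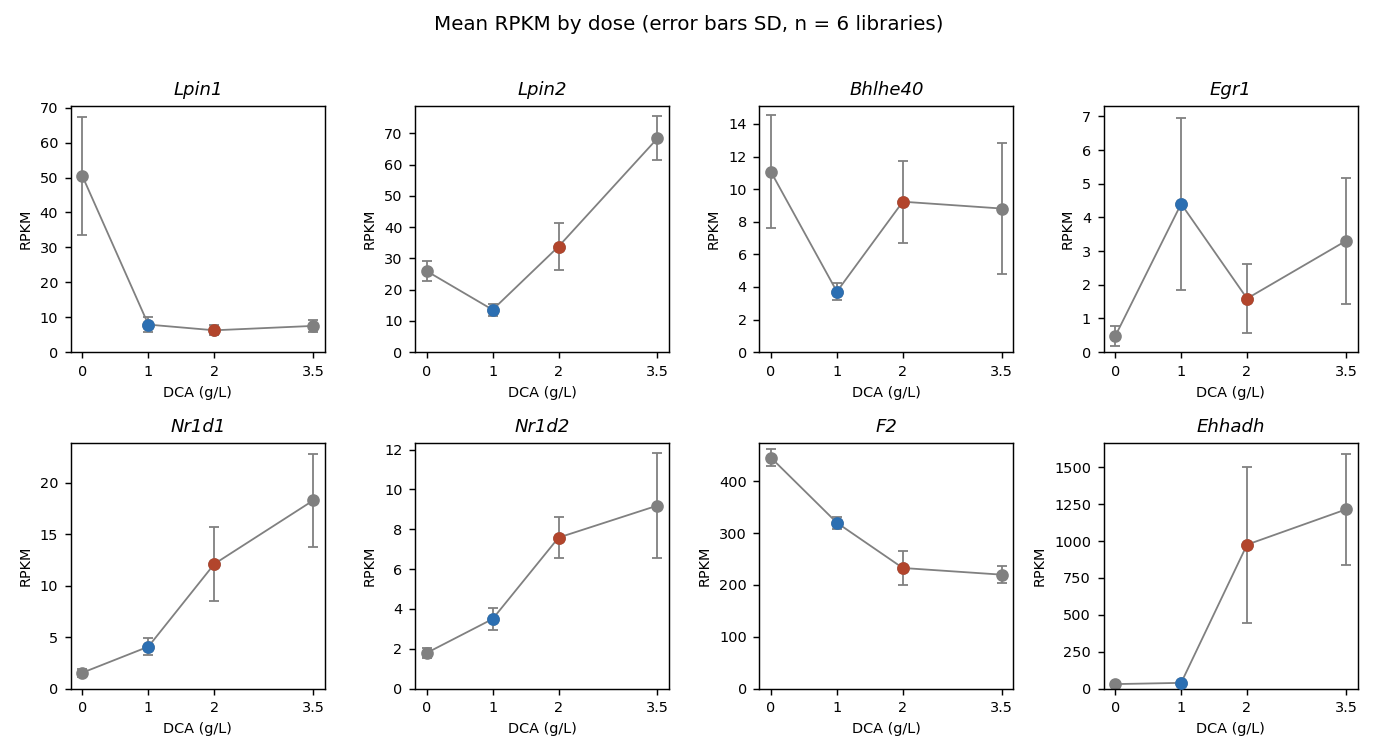
Mean RPKM ± SD of 6 libraries per dose over 0, 1, 2 and 3.5 g/L for Lpin1, Lpin2, Bhlhe40, Egr1, Nr1d1, Nr1d2, F2 and Ehhadh, each on its own axis. Lpin2 and Bhlhe40 are lowest at 1 g/L, Lpin1 is low from 1 g/L on, Nr1d1 and Nr1d2 climb and F2 declines over the first 2 steps, and Ehhadh stands far above its control level at 2 and 3.5 g/L.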

How the data were processed

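The authors deposited 1 table of RPKM for the series, with reads scaled to gene length and library size. Per the labels' protocols, RNA was extracted from frozen pieces of mixed liver lobes and made into stranded libraries of total RNA depleted of ribosomal RNA. CASAVA, Partek, STAR 2.4 and mm10 appear, with no role stated, in the submitters' processing notes. The gene annotation, and whether counting used strand, are not given in the sources used here, so antisense or overlapping genes may share reads. Zeros stand as 1e-04 RPKM. The table is sorted by symbol and stops inside Olfr272. That line was dropped with 13 whose symbols had become dates, leaving 15582 genes. Later symbols (Pdk, Per, Scd, Slc, Ugt, Uqcr) were not analysed here. No column was left unused.

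The 6321 genes that reached 0.5 RPKM in at least 6 of the 12 libraries were fitted as log2(RPKM + 1) with limma 3.58.1 in R 4.3.3 (trend, two-sided, Benjamini-Hochberg adjustment over all 6321, threshold 0.05). SE is limma's, SD is over 6 libraries. RPKM are not counts, so no count test was run. In simulated data of 6321 genes the fit recovered 95 of 100 genes changed 1.5-fold and 98 of 100 changed 2-fold, with 12 false calls among 6121. The changed genes were drawn only where mean log2(RPKM + 1) at 1 g/L was above 1. The noise was normal and independent, with the same spread at both doses and no tag effect. Real libraries at 2 g/L spread more widely in many fat genes, so these figures do not carry over to the real calls. Depth came from steps between low RPKM values. At 1628 selected genes 28989 of 29000 values (99.96%) were whole numbers of reads, within a tolerance of 0.02 times the count. The selection favours so high a share.

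The 48 gene lists (1224 entries, 1217 found, 7 of them under another symbol) and the members were chosen with earlier results of these data known. Named genes were the 14 largest rises and 12 largest falls without overlap, passing over Gm, Rik, LOC and Mir symbols. To these were added up to 4 called members per list by size (or the largest difference where none was called), the 5 largest second differences and the 5 largest calls within L2 in each direction, and Lpin1, Cyp4a14, Cyp4a10, Ehhadh, Ccnd1, Fgf21 and Gstz1. Other list members named in the text were chosen after their values were seen. Lists were described by counts, without a test, and some of their members are not reported here. Gene positions and promoters are RefSeq, GRCm38.p6. Alternatives covered tag, scaling, pseudocount, filter, spread and each library left out.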

Additional observations from a re-analysis of the deposited data

Results flagged for a closer look

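In 72 groups of 6 libraries of named genes, the gap between an extreme library and its neighbour was compared with Dixon's 95% critical value for 6 values. Chance alone passes about 5% of such groups, and 7 passed. Replicate 78 was the outlying library at 2 g/L in 3 of them. It was lowest in Elovl3 at 28.8 RPKM, highest in Cyp2c40 at 27.8 RPKM and highest in Cyp2c69 at 4.58 RPKM. At 1 g/L replicate 54 was the highest in Cyp2b9 at 0.897 RPKM, in Cyp2a4 at 1.44 RPKM and in Cyp3a59 at 15.8 RPKM. Replicate 50 was the highest at 1 g/L in C8b at 154 RPKM. Elovl3, Cyp2b9, Cyp2a4, Cyp3a59, C8b and Cyp2c40 were called in every fit that left out 1 library, while Cyp2c69 was lost in 5 of those 12 fits (adjusted p up to 0.0639).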

How the results depend on the processing

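All counts are limma calls for 2 g/L against 1 g/L. With the tag as a term 720 genes were called (522 rises, 198 falls), and with tag L2 only 583 (432 rises, 151 falls). Median-ratio factors gave 663 rises and 625 falls, and quantile normalization 573 rises and 661 falls. Called list members, 433 in all, were 240 with the tag as a term and 208 with L2 only. The other alternatives kept these counts within 1.5 times. Leaving out 1 library gave 1252 (without 2 g/L replicate 75) to 1726 calls (without 2 g/L replicate 78), with 999 to 1345 rises, 253 to 381 falls and 358 to 453 list members. Second differences, 193 in all, ranged over 83 (without 1 g/L replicate 53) to 300 (without 2 g/L replicate 78), and without 1 g/L replicates 49, 50, 51 or 52 were 122, 96, 107 and 118. Of 160 named genes with a test, 41 were no longer called with the tag as a term, 50 with L2 only (fewer libraries), 15 with median-ratio factors, 21 with quantile normalization and 27 with a filter of above 0 in 1 library. The Gstz1 difference was 0.0166 with the tag as a term and with L2 only (main value −0.017), and −0.049 to 0.0056 when 1 library was left out, with 0.0056 without 1 g/L replicate 50 and 0.0033 without 2 g/L replicate 73. The causes were not tested. Depth limits genes near 0.5 RPKM most. No paired analysis was possible because the doses share no replicate number.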

Other observations

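Genes of the growth hormone axis and liver hormones were called more often as falls, with 7 of 30 tested members fallen and 4 risen, beside 5.14% and 20.8% of all genes. Ghr, the growth hormone receptor, fell by 0.39 on the log2 scale (adjusted p = 0.00325), as did Leap2 (−0.57), an antagonist of the ghrelin receptor, and Inhbc (−0.55), an activin subunit. All 3 were called within L2. Igf1 (−0.27, adjusted p = 0.172) and Igfals (−0.57, adjusted p = 0.0587), which carry the hormone's action in plasma, did not pass. Without 2 g/L replicate 76, 7 of the 30 rose, and without 1 g/L replicate 51 or 2 g/L replicates 73 or 75, 1 did.

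In haem synthesis, Cpox, which acts late in the pathway, averaged 37.8 ± 6.78 RPKM at 2 g/L and 22.3 ± 3.76 RPKM at 1 g/L (log2 difference 0.73, SE 0.12, adjusted p = 0.000983). Alas2, the erythroid form of the first enzyme, averaged 21.8 ± 5.28 RPKM at 2 g/L and 38 ± 4.78 RPKM at 1 g/L (log2 difference −0.80, SE 0.14, adjusted p = 0.00114), with no overlap, while the globin genes Hbb-bs and Hba-a1 differed by −0.37 and −0.44 and did not pass (adjusted p = 0.187 and 0.15). The liver form Alas1 did not pass (0.75, adjusted p = 0.307).

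Among genes in no list, Ly6d lay at 0.668 to 8.04 RPKM (median 4.41) at 2 g/L, against 0.0001 to 0.364 RPKM (median 0.152) at 1 g/L, and 1 g/L replicate 54 was listed at 0. No library at 1 g/L reached 0.5 RPKM, so the gene was tested only because of its level at 2 g/L, and its values are a description. Gpr110, an adhesion receptor, lay at 0.243 to 2.06 RPKM (median 0.557) at 2 g/L, against 2.35 to 5.57 RPKM (median 2.86) at 1 g/L (log2 difference −1.23, SE 0.23, adjusted p = 0.00207), and Loxl4, a lysyl oxidase, at 0.703 to 1.9 RPKM (median 1.54) at 2 g/L, against 3.15 to 4.67 RPKM (median 3.56) at 1 g/L (log2 difference −0.96, SE 0.12, adjusted p = 0.000162). Aox3, an aldehyde oxidase, averaged 103 ± 19.3 RPKM at 2 g/L and 187 ± 20.2 RPKM at 1 g/L (log2 difference −0.87, SE 0.12, adjusted p = 0.000279). In Gpr110, Loxl4 and Aox3 the groups did not overlap and the call stood within L2.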
